A study of Oryza sativa with 14 samples.

Results

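The comparison set root transcript levels of mhz4 and mhz5, 2 rice mutants of the abscisic acid (ABA) pathway, against those of mhz1, a rice mutant of a histidine kinase. Its members were chosen by title: the 4 root arrays of mhz4 and mhz5 and the 2 root arrays of mhz1, 6 of the 14 arrays in the series. Every difference was taken between arrays of the same gas, and no wild-type array entered any difference given here. The groups were roots of mhz4 in ethylene, mhz4 in air, mhz5 in ethylene, mhz5 in air, mhz1 in ethylene and mhz1 in air, with 1 one-colour Affymetrix rice array in each. Seeds of all 3 genotypes germinated in darkness for 2 days at 37 °C. The seedling age given is 3 days for the air and the ethylene groups alike. For the ethylene groups, seedlings spent 8 h in 10 ppm ethylene at 28 °C in darkness, with the water lowered. The air groups were the untreated controls. No temperature, duration or water level of their own is stated for the air groups. Which allele each mutant carried, and how many seedlings made up a sample, is not given in the sources used here.

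ABA is made from carotenoids. From published work on these mutants, MHZ5 encodes a carotenoid isomerase that acts early in that route, MHZ4 codes for a protein needed for a later step in the chloroplast, and MHZ1 is a histidine kinase that passes a phosphate on to response regulators and acts downstream of ethylene receptors in roots. In plants with ABA, its receptors bind and inhibit clade A PP2C phosphatases. SnRK2 kinases, called SAPK in rice, are thereby freed to switch on bZIP transcription factors and their targets, among them dehydrins and the PP2C genes themselves. Ethylene slows root growth in rice seedlings, and each of the 3 genes was found through mutants with altered ethylene response. Because mhz1 is itself a mutant, a difference given here does not say which of the genotypes departs from wild type.

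The 6 arrays resembled one another in overall distribution. Their median signals were 16.4 to 16.9 per array, 19196 to 19664 probe sets reached a signal of 50, and Spearman correlations between arrays over all probe sets were 0.982 to 0.991. Signals are the deposited linear values. Differences are on the log2(signal + 8) scale, as the mean of mhz4 and mhz5 minus mhz1 within gas, so that 1 is a doubling for a bright probe set and the change of dim ones is understated. Of 10 root markers fixed for this comparison, 9 reached 50 on every array, and their summed signal was 14938 and 12892 in mhz4 (ethylene, then air, here and in every pair of values below), 17827 and 12657 in mhz5 and 12856 and 8166 in mhz1. The mhz1 air array was thus lowest, and 2 of the 9 root markers tested, the nitrate transporters NRT2.2 and NRT2.3, are also among the calls below. Of 7 shoot photosynthesis markers, 2 reached 50 in mhz4 ethylene, 1 in mhz4 air and none on the other 4 arrays. Their summed signal was 587 and 202 in mhz4, 147 and 163 in mhz5 and 143 and 136 in mhz1. The rubisco gene RBCS made up most of this, with 373 and 47.9 in mhz4, 42.4 and 42.1 in mhz5 and 29.6 and 32.6 in mhz1, so the mhz4 ethylene array stands apart. Its part in the results was not tested, and counts without that array are given with them. Of 14 seed and endosperm markers 3 reached 50 on each array.

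MHZ4, the one mutated gene measured here, did not pass the test between the groups. It read 45.3 and 46.9 in mhz4, 92.6 and 87.5 in mhz5 and 64.8 and 86.5 in mhz1, a difference of −0.19 ± 0.33 (SE) with a limma adjusted p of 0.740. Both mhz4 arrays lay below all 4 others. MHZ1 and MHZ5 were not analysed here.

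With class (mhz4 and mhz5 against mhz1) and gas as terms, 1690 of 20217 probe sets differed (8.36%) at a limma adjusted p under 0.05. Of these, 446 were higher in mhz4 and mhz5 (2.21% of those tested) and 1244 were lower (6.15%). The median difference over all tested was −0.03. All 4 same-gas differences had the same sign for each of the 1690, as they did for 49.4% of all tested probe sets. A difference of at least 1 was reached by 58 of the higher and 341 of the lower calls. All 4 same-gas pairs were at least 2-fold apart, whatever the test, for 20 probe sets that were higher (0.0989%) and 191 that were lower (0.945%). The split depended on scaling: 26.4% of calls were higher as deposited, 38.6% after scaling to a common trimmed mean (629 higher and 1000 lower) and 40.7% after quantile normalization (641 higher and 933 lower), with no call changing sign. Since each group is 1 array, genotypes and gases stand in for replicates, and p-values measure the spread between these 6 arrays. The calls rest heavily on mhz1 air: without that array 4 probe sets passed, 1 higher and 3 lower, against 209 without mhz1 ethylene, 410 without mhz4 ethylene and 734 without mhz5 ethylene, with 877 without mhz4 air and 1507 without mhz5 air. All 1690 kept their sign when 1 or the other mhz1 array was left out. This was fixed in advance, since all 4 same-gas differences of each call had 1 sign.

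Of 13117 genes represented by their brightest probe set, 1138 were called, 259 higher (1.97%) and 879 lower (6.7%). Among the 1938 tested genes with an informative name 44 were higher and 157 lower. The largest higher ones held genes of nitrate use and haemoglobins. NSHB2, a non-symbiotic haemoglobin, a class of proteins that bind oxygen and convert nitric oxide to nitrate, read 1236 and 72.4 in mhz4 and 1296 and 152 in mhz5, against 44.9 and 19.2 in mhz1. Its ethylene arrays of mhz4 and mhz5 lay far above their air arrays, and the 4 arrays did not overlap with mhz1. The difference was 3.32 ± 0.58 (adjusted p 0.0286). Its paralog NSHB1 read 349.7 and 313 in mhz4 and 294 and 338 in mhz5, against 134 and 124 in mhz1, and differed by 1.28 ± 0.10 (adjusted p 0.00676), at nearly the same level in the 2 gases. NR1, a nitrate reductase that turns nitrate into nitrite, read 379.9 and 217 in mhz4 and 569.99 and 242 in mhz5, against 70.3 and 56.7 in mhz1, a difference of 2.23 ± 0.22 (adjusted p 0.00984). The lowest of the 4 mhz4 and mhz5 arrays was 3.08-fold above the higher mhz1 array.

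ILI2, an atypical helix-loop-helix protein, was near the floor in mhz1. It read 110.3 and 135 in mhz4 and 52.2 and 151 in mhz5, against 7.71 and 6.04 in mhz1, a difference of 2.93 ± 0.33 (adjusted p 0.0125). CCR1, a cinnamoyl-CoA reductase of lignin precursor synthesis, read 61.1 and 93.5 in mhz4 and 38 and 127 in mhz5, against 13.6 and 14.8 in mhz1. It differed by 1.87 ± 0.29 (adjusted p 0.0213), and unlike NSHB2 it was higher in air than in ethylene in both mhz4 and mhz5. THT2, a tyramine hydroxycinnamoyltransferase, rose by 1.64 ± 0.30 (adjusted p 0.0323), with 404 and 357 in mhz4 and 419.9 and 545 in mhz5, against 199 and 85.2 in mhz1. ADC2, an arginine decarboxylase of polyamine synthesis, read 82.1 and 987 in mhz4 and 77.7 and 852 in mhz5, against 36.8 and 411 in mhz1. It was 12-fold higher in air than in ethylene in mhz4, 11-fold in mhz5 and 11.2-fold in mhz1, so the groups overlapped until gas was matched, and the difference within gas was 1.06 ± 0.09 (adjusted p 0.00862). BGLU3, a beta-glucosidase, was higher by 1.08 ± 0.16 (adjusted p 0.0205), with 92.6 and 80.7 in mhz4 and 95.6 and 57.3 in mhz5, against 47 and 23.8 in mhz1. The remaining 4 of the 12 largest, NAAT1, NRT2.2, NRT2.3 and SPX2, are described with iron, nitrogen and phosphate. Without mhz1 air none of these 12 calls passed (adjusted p 0.0582 to 0.264); without mhz4 ethylene 5 passed, without mhz5 ethylene 7, without mhz1 ethylene 3, without mhz4 air 8 and without mhz5 air 12.

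**Figure D1:**
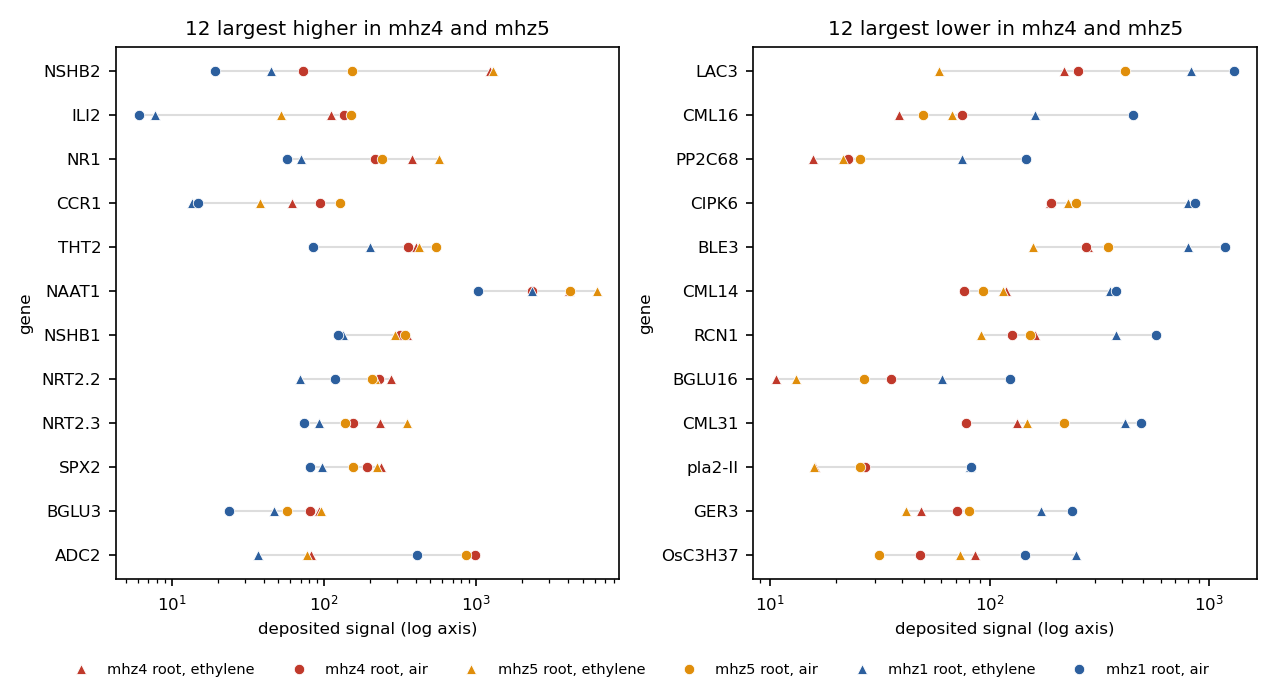
Deposited signal (log axis) of the 12 named genes with the largest higher and the 12 with the largest lower difference, 1 point per array, triangles for ethylene and circles for air. The blue mhz1 points lie to the left of the same-gas mhz4 and mhz5 points in the left panel and to the right of them in the right panel, with NSHB2 spanning the widest range, from 19.2 in mhz1 air to 1296 in mhz5 ethylene.

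Of the 12 named genes with the largest lower difference, 4 encode calcium-signalling proteins (CML16, CML14, CML31 and CIPK6). LAC3, a laccase, an enzyme class that oxidises phenolics in the cell wall, had the largest difference, −2.37 ± 0.51 (adjusted p 0.0459), with 219 and 252 in mhz4 and 59 and 414 in mhz5, against 828 and 1297 in mhz1. The 2 mhz5 arrays were themselves 7.02-fold apart for this gene. Calmodulin-like proteins bind calcium and pass its signal on. CML16 read 38.7 and 74.7 in mhz4 and 67.6 and 49.8 in mhz5, against 160.2 and 451 in mhz1, a difference of −2.12 ± 0.34 (adjusted p 0.0243). CML14 read 119 and 76.7 in mhz4 and 114 and 93.1 in mhz5, against 353 and 376 in mhz1, and differed by −1.79 ± 0.14 (adjusted p 0.00717). CML31 was lower by a similar amount, −1.67 ± 0.36 (adjusted p 0.0475), with 133 and 78.3 in mhz4 and 147 and 217 in mhz5, against 413 and 487 in mhz1. CIPK6, one of the kinases that calcium-binding CBL proteins activate, read 187 and 191 in mhz4 and 228 and 246 in mhz5, against 797 and 863 in mhz1. Its values were tight within each class, and the difference was −1.93 ± 0.13 (adjusted p 0.00580).

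Further lower genes act in the cell wall, in transport and in lipid breakdown. RCN1, also named OsABCG5, is an ABC transporter needed for suberin in rice roots. It read 160.4 and 127 in mhz4 and 91.5 and 152 in mhz5, against 376 and 574 in mhz1, a difference of −1.78 ± 0.23 (adjusted p 0.0147). BLE3, a gene named for its induction by brassinolide whose product belongs to a membrane family related to the proteins of the Casparian strip, read 279.99 and 274 in mhz4 and 157 and 344 in mhz5, against 798 and 1182 in mhz1, and differed by −1.90 ± 0.23 (adjusted p 0.0134). GER3, a germin-like protein, fell by 1.65 (SE 0.11, adjusted p 0.00549), with 48.5 and 71.2 in mhz4 and 41.7 and 80.2 in mhz5, against 170.3 and 236 in mhz1. The phospholipase A2 gene pla2-II read 15.9 and 26.9 in mhz4 and 15.8 and 25.5 in mhz5, against 81.3 and 82.2 in mhz1, the zinc-finger gene OsC3H37 85.5 and 47.9 in mhz4 and 72.9 and 31.4 in mhz5, against 248 and 145 in mhz1. Both were lower, by −1.65 ± 0.15 and −1.63 ± 0.16 (adjusted p 0.00885 and 0.00984). The beta-glucosidase BGLU16, whose probe set may also bind related transcripts, read 10.6 and 35.3 in mhz4 and 13.1 and 26.7 in mhz5, against 60.8 and 123 in mhz1, a difference of −1.78 ± 0.14 (adjusted p 0.00717). Both pla2-II and BGLU16 reached 50 on the mhz1 arrays only, so the filter kept them through mhz1 alone. For none of the 12 lower genes did any mhz4 or mhz5 array overlap with mhz1. These 12 were picked as the largest lower differences among the calls, which favours such separation, so this adds nothing. How often it occurs over all tested probe sets was not counted. None of these 12 calls passed without mhz1 air (adjusted p 0.0582 to 0.268); without mhz4 ethylene 9 passed, without mhz5 ethylene 11, without mhz1 ethylene 5, without mhz4 air 10 and without mhz5 air 12.

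Genes of ABA response were lower in mhz4 and mhz5 than in mhz1 wherever they passed the test. Of 7 clade A PP2C genes on the array 5 were tested and 4 were called, all lower. The 5 had a median difference of −0.63, beside −0.05 over all genes tested. Over all genes 6.7% were called lower and 1.97% higher, the shares to set beside this count and those of the lists below. PP2C68 read 15.7 and 22.5 in mhz4 and 21.4 and 25.7 in mhz5, against 75 and 146 in mhz1, a difference of −1.96 ± 0.18 (adjusted p 0.00938). OsPP2C09 read 129 and 125 in mhz4 and 138 and 132 in mhz5, against 279 and 419 in mhz1, and differed by −1.33 ± 0.15 (adjusted p 0.0121). For both genes mhz4 and mhz5 lay close together, below mhz1 in either gas, and mhz1 was higher in air than in ethylene. PP2C68 reached 50 on the mhz1 arrays only, so the filter kept it through mhz1 alone. OsPP2C08 (79.6 and 105 in mhz4 and 73.1 and 99.3 in mhz5, against 102 and 193 in mhz1) and ABIL1 (281 and 309 in mhz4 and 298 and 308 in mhz5, against 372 and 534 in mhz1) differed by −0.63 ± 0.13 and −0.56 ± 0.11 (adjusted p 0.0418 and 0.0366). After quantile normalization these calls of OsPP2C08 and ABIL1 missed the threshold (limma adjusted p 0.0705 and 0.0569). OsPP2C08 also missed it after scaling to a common trimmed mean (limma adjusted p 0.0545). PP2C53 did not pass, with a difference of −0.28 ± 0.08 (adjusted p 0.0954) and 151 and 164 in mhz4 and 170.4 and 173 in mhz5, against 191 and 212 in mhz1. PP2C30 reached 50 on mhz1 air alone and so was not among those tested: it read 12.5 and 17.5 in mhz4 and 11.6 and 17.8 in mhz5, against 32.3 and 129 in mhz1. With the other filters that kept it, PP2C30 was lower by −1.71, with a limma adjusted p of 0.0234 with no filter (SE 0.27) and 0.0321 with probe sets kept by all 14 arrays (SE 0.30). PP2C51 read 7.43 to 10.0 on the 6 arrays.

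Dehydrins and other LEA proteins accumulate in drying seeds and in ABA-treated or dehydrated tissue. Of 7 members on the array 2 were tested. LIP9, a dehydrin, read 514 and 515 in mhz4 and 606 and 545 in mhz5, against 754 and 1176 in mhz1, and was lower by −0.78 ± 0.17 (adjusted p 0.0466). It missed the threshold after scaling to a common trimmed mean and after quantile normalization (limma adjusted p 0.0548 in both). LEA19, also named LEA3-1, had no difference past the threshold, −0.53 ± 0.37 (adjusted p 0.391). It read 45 and 103 in mhz4 and 37.3 and 105 in mhz5, against 31 and 286 in mhz1, so mhz1 was highest in air and lowest in ethylene. The RAB16 family, by contrast, was bright on 1 array only. RAB21 read 10.9 and 18.8 in mhz4 and 9.82 and 13.5 in mhz5, against 29.2 and 565 in mhz1. RAB16D read 29.97 and 33.7 in mhz4 and 21.6 and 30.9 in mhz5, against 32.2 and 349 in mhz1. RAB16C gave 25.1 and 20.7 in mhz4 and 23.5 and 20.9 in mhz5, against 22.8 and 134 in mhz1, and RAB16B gave 7.26 and 9.12 in mhz4 and 12 and 12.2 in mhz5, against 9.52 and 77.5 in mhz1. Each of these 4 genes was highest in mhz1 air, and since none reached 50 on a second array none was tested. With no filter, or with probe sets kept by all 14 arrays, the class difference of RAB21 had a limma adjusted p of 0.0795 and 0.0797, and those of RAB16B, RAB16C and RAB16D ranged from 0.145 to 0.256, so none of the 4 passed. These 4 are neighbouring paralogs whose probe sets may share transcripts. EM, an LEA gene of seeds, read 20.1 to 34.4 on the 6 arrays.

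**Figure D2:**
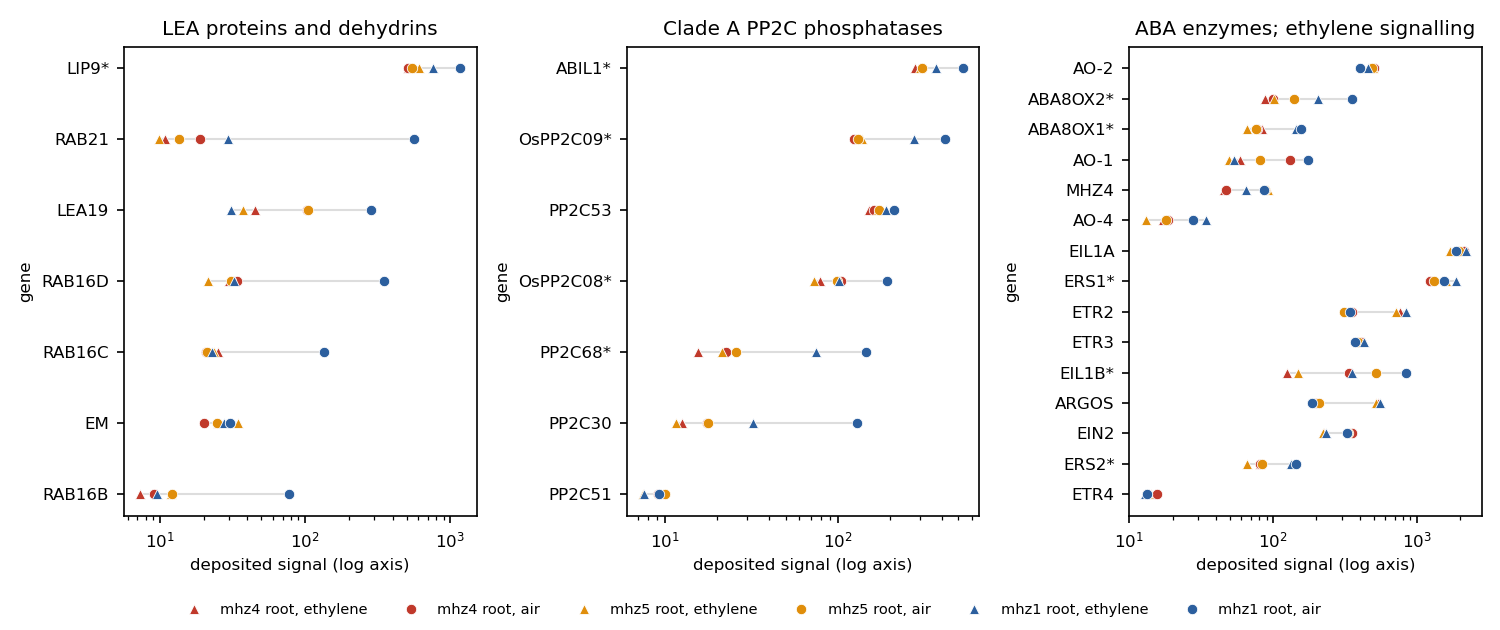
Deposited signal (log axis) by array for every LEA or dehydrin gene, every clade A PP2C gene, and the ABA enzyme and ethylene signalling lists on the array. An asterisk marks adjusted p under 0.05. The blue circle of mhz1 air lies far to the right of the other 5 points for RAB21, RAB16D, RAB16C, RAB16B and PP2C30, while for OsPP2C09 and PP2C68 both mhz1 points lie to the right.

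Other steps of the ABA pathway gave fewer calls. Of 15 tested receptors, SAPK kinases and transcription factors 5 were lower and none higher, with a median of −0.24. Hox22, a homeodomain-leucine zipper factor, read 37.7 and 76 in mhz4 and 43.6 and 97 in mhz5, against 121 and 292 in mhz1, a difference of −1.54 ± 0.13 (adjusted p 0.00809). ABF2, also named BZIP23, a bZIP activator of ABA-responsive genes, read 384 and 433 in mhz4 and 442 and 454 in mhz5, against 667 and 1048 in mhz1, and differed by −0.96 ± 0.14 (adjusted p 0.0186). The kinases SAPK10 and SAPK5 were lower by −0.66 ± 0.12 and −0.50 ± 0.07 (adjusted p 0.0284 and 0.0164). SAPK10 read 36.1 and 44.1 in mhz4 and 30.2 and 41.5 in mhz5, against 53.7 and 76.6 in mhz1. Only its mhz1 arrays reached 50, so the filter kept it through mhz1 alone. SAPK5 read 275 and 263 in mhz4 and 286 and 249 in mhz5, against 401 and 366 in mhz1. Among 5 tested genes of ABA biosynthesis and breakdown, both calls were the 8′-hydroxylases that break ABA down. ABA8OX2 read 88 and 100.4 in mhz4 and 101 and 141 in mhz5, against 206 and 356 in mhz1, a difference of −1.29 ± 0.17 (adjusted p 0.0157). ABA8OX1 read 83.4 and 77.6 in mhz4 and 65.3 and 76.6 in mhz5, against 143 and 155 in mhz1, and differed by −0.91 ± 0.11 (adjusted p 0.0140). In the carotenoid pathway 1 of 3 tested genes was called: ZEP, the zeaxanthin epoxidase that precedes ABA synthesis, read 53 and 57.1 in mhz4 and 52.9 and 58.3 in mhz5, against 80.2 and 103 in mhz1, a difference of −0.64 ± 0.10 (adjusted p 0.0208). Of the 12 ABA and carotenoid genes named as called, none passed without mhz1 air (adjusted p 0.0717 to 0.225); without mhz4 ethylene 4 passed, without mhz5 ethylene 7, without mhz1 ethylene 5, without mhz4 air 7 and without mhz5 air 8.

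Ethylene perception and signalling had 3 calls among 8 genes tested, all lower, beside 6.7% lower over all genes. The list median was −0.09. EIL1B, one of the EIN3-like transcription factors that carry out the ethylene response, read 126 and 334 in mhz4 and 148 and 517 in mhz5, against 355 and 841 in mhz1, a difference of −1.17 ± 0.19 (adjusted p 0.0245). It was lower in ethylene than in air in each genotype. The receptor genes ERS2 and ERS1 were lower by −0.78 ± 0.10 and −0.25 ± 0.05 (adjusted p 0.0156 and 0.0485). ERS2 read 80.9 and 80.6 in mhz4 and 66.2 and 83.5 in mhz5, against 133 and 145 in mhz1. ERS1 read 1599.5 and 1236 in mhz4 and 1580.2 and 1312 in mhz5, against 1867 and 1529.7 in mhz1, and its groups separated only within gas. The other 5 tested members, EIN2, ETR2, ETR3, EIL1A and ARGOS, had differences from −0.12 to 0.03 and did not pass. None of 3 tested ethylene biosynthesis genes passed.

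The two-component system, to which the histidine kinase of MHZ1 belongs, had 4 calls among 17 genes tested, 2 in each direction. Its median was −0.05. Over all genes 6.7% were lower and 1.97% higher. RR6 and RR4 are type A response regulators, which cytokinin induces and which dampen its signal. RR6 read 1248 and 1555 in mhz4 and 1062 and 1549.7 in mhz5, against 840.1 and 872 in mhz1, and rose by 0.64 ± 0.11 (adjusted p 0.0277). RR4 read 354 and 277 in mhz4 and 273 and 271 in mhz5, against 215 and 175 in mhz1, and rose by 0.57 ± 0.11 (adjusted p 0.0396). RR1, of the same type A, went the other way, with 52.3 and 73.8 in mhz4 and 58.7 and 84 in mhz5, against 97 and 132 in mhz1, a difference of −0.71 ± 0.10 (adjusted p 0.0178). ORR2, listed also as RR22 and a type B regulator, which acts as a transcription factor, read 184 and 218 in mhz4 and 177 and 204 in mhz5, against 272 and 273 in mhz1, and differed by −0.46 ± 0.08 (adjusted p 0.0304). The type A genes therefore did not share a direction. Of 7 tested cytokinin genes, the LOG-like activating enzyme LOGL1 rose by 0.98 ± 0.14 (adjusted p 0.0192), with 745 and 524 in mhz4 and 779 and 533 in mhz5, against 478 and 212 in mhz1. LOGL7, of the same family, fell by 0.62 (SE 0.11, adjusted p 0.0303), with 123 and 132 in mhz4 and 123 and 145 in mhz5, against 168 and 249 in mhz1. The probe sets of RR4 and LOGL1 may also bind related transcripts. For the 9 calls among ethylene, two-component and cytokinin genes, leaving out mhz1 air gave adjusted p of 0.0914 to 0.242 and no call; without mhz4 ethylene 1 passed, without mhz5 ethylene 5, without mhz1 ethylene 1, without mhz4 air 4 and without mhz5 air 5.

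Genes of iron acquisition had 11 of 13 tested members with a difference above 0, beside 5280 of 13117 over all genes tested. Their median was 0.73, yet 2 passed the test. The 9 tested root markers had a median of 0.73 as well, with 8 above 0. Rice takes up iron with phytosiderophores, which are made from nicotianamine. NAS2, a nicotianamine synthase, read 8274 and 6891 in mhz4 and 9937 and 9079 in mhz5, against 5987 and 4284 in mhz1, and rose by 0.74 ± 0.14 (adjusted p 0.0324). NAAT1, the aminotransferase of the next step, read 4053 and 2325 in mhz4 and 6176 and 4115 in mhz5, against 2312 and 1029 in mhz1, and rose by 1.35 ± 0.28 (adjusted p 0.0418). For both genes the 4 same-gas differences were positive, as for every higher call, and mhz5 lay above mhz4. The phytosiderophore transporter YSL15 had a larger difference, 1.41 ± 0.41, but its adjusted p was 0.0893: it read 1762 and 714 in mhz4 and 3350.2 and 1593 in mhz5, against 1207 and 299 in mhz1. The mhz1 air array was the lowest of the 6 for NAS2, NAAT1 and YSL15, as it was for the summed root markers, which include YSL15, and their part in these differences was not tested.

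Nitrogen and phosphate uptake had 4 calls among 17 tested genes, 3 of them higher, with a median of 0.09. The high-affinity nitrate transporters NRT2.2 and NRT2.3 rose by 1.26 ± 0.21 and 1.23 ± 0.21 (adjusted p 0.0258 and 0.0282). NRT2.2 read 273 and 230.1 in mhz4 and 215 and 205 in mhz5, against 69.8 and 118 in mhz1, and NRT2.3 read 233 and 155 in mhz4 and 352 and 138 in mhz5, against 92.7 and 74.3 in mhz1. Their probe sets may also bind related transcripts. SPX2, which restrains the phosphate-starvation regulator, rose by 1.11 ± 0.11 (adjusted p 0.00943), with 238 and 190.1 in mhz4 and 224 and 155 in mhz5, against 96.5 and 80.6 in mhz1. The ammonium transporter AMT3-2 read 358 and 349 in mhz4 and 377 and 399.8 in mhz5, against 579.7 and 599 in mhz1, and was lower by −0.66 ± 0.08 (adjusted p 0.0139). NRT2.2, NRT2.3, NR1 and both haemoglobins lay above mhz1 in all 4 same-gas pairs, but so did every higher call, so this adds nothing. Of the 17 tested genes of this list, 9 had a difference above 0 and 8 below. Of 28 tested zinc, copper and metallothionein genes 3 were lower and none higher, beside 6.7% lower over all genes. The list median was 0.06. The metallothionein MT-2 read 385 and 550.4 in mhz4 and 390.1 and 579.96 in mhz5, against 829 and 992 in mhz1, a difference of −0.94 ± 0.08 (adjusted p 0.00871). The vacuolar metal transporters MTP5 and MTP1 differed by −0.68 ± 0.09 and −0.30 ± 0.06 (adjusted p 0.0160 and 0.0464). The 9 calls among iron, nitrogen, phosphate and metal genes all missed the threshold without mhz1 air (adjusted p 0.0582 to 0.264); without mhz4 ethylene 2 passed, without mhz5 ethylene 5, without mhz1 ethylene 1, without mhz4 air 5 and without mhz5 air 8.

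**Figure D3:**
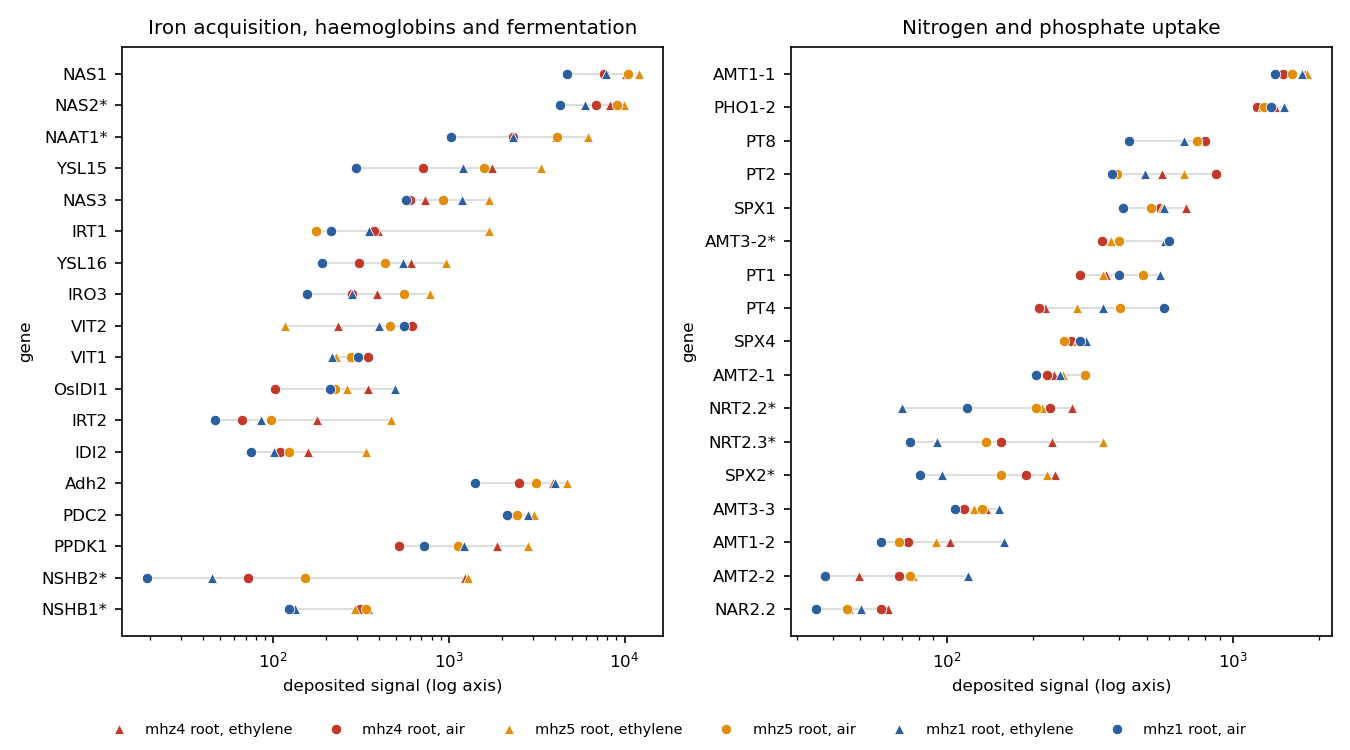
Deposited signal (log axis) by array for tested genes of iron acquisition, haemoglobins with fermentation, and nitrogen and phosphate uptake. An asterisk marks adjusted p under 0.05. For NAS2, NAAT1, NSHB1, NSHB2, NRT2.2, NRT2.3 and SPX2 each mhz4 and mhz5 point lies to the right of the mhz1 point of the same gas, and for AMT3-2 to the left.

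In the low-oxygen and fermentation list the 2 calls among 5 tested genes were the haemoglobins described above, and Adh2, an alcohol dehydrogenase, had 3930.4 and 2526 in mhz4 and 4703 and 3156 in mhz5, against 4016 and 1419.9 in mhz1, without passing (adjusted p 0.166). Among growth-related lists, 2 of 9 tested alpha-expansins, which loosen cell walls, rose and none fell. EXPA2 read 1235 and 1125 in mhz4 and 1329.5 and 1237 in mhz5, against 793 and 765 in mhz1, a difference of 0.65 ± 0.07 (adjusted p 0.0108). EXPA5 rose by 0.39 ± 0.08 (adjusted p 0.0460). None of the 8 tested beta-expansins passed. In the cellulose and cell wall list 2 of 43 rose and 5 fell, beside 1.97% higher and 6.7% lower over all genes. The 4 largest were lower: CslF8, of the family that makes mixed-linkage glucan, by −1.35 ± 0.27, GT43C, a xylan glycosyltransferase, by −0.79 ± 0.12, CSLC3 by −0.51 ± 0.09 and TBL6 by −0.51 ± 0.11 (adjusted p 0.0380, 0.0224, 0.0308 and 0.0470). CslF8 read 56.9 and 74.9 in mhz4 and 79.8 and 47.8 in mhz5, against 134 and 227 in mhz1.

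Auxin response and transport had 6 lower and no higher calls among 46 tested genes, 13% lower beside 6.7% over all genes, with a median of −0.16. IAA20, of the Aux/IAA repressors, read 57.9 and 48.2 in mhz4 and 78.5 and 60.1 in mhz5, against 147 and 139.9 in mhz1, a difference of −1.15 ± 0.15 (adjusted p 0.0158; gene LOC4340245). IAA9 and IAA10 differed by −0.72 ± 0.14 and −0.47 ± 0.08 (adjusted p 0.0380 and 0.0296), and ARF10 (LOC4341882), an auxin response factor, by −0.47 ± 0.07 (adjusted p 0.020). Of 29 jasmonate genes 3 were lower and none higher. JAZ13 and JAZ10, repressors of the jasmonate response, differed by −1.39 ± 0.28 and −0.91 ± 0.17 (adjusted p 0.0380 and 0.0354), and the lipoxygenase LOX5 by −0.28 ± 0.05 (adjusted p 0.0334). JAZ13 read 109 and 80.7 in mhz4 and 88.9 and 83.7 in mhz5, against 173 and 356 in mhz1, with mhz1 air 2.05-fold above mhz1 ethylene. The single calls in the gibberellin and ERF lists were CIGR1, a GRAS protein, at −0.39 ± 0.07 (adjusted p 0.0295) and AP2-5 at −0.47 ± 0.10 (adjusted p 0.0462), both lower, of 11 and 3 genes tested. Without mhz1 air the 15 growth and hormone genes named as called had adjusted p of 0.101 to 0.245 and none passed; without mhz4 ethylene 1 passed, without mhz5 ethylene 5, without mhz1 ethylene 2, without mhz4 air 5 and without mhz5 air 7.

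Small heat shock proteins, chaperones of heat and other stress, made up all 4 calls among 14 tested heat shock genes. The list as a whole had a median of −0.06, with 7 of the 14 above 0 and 7 below. Hsp17.9, HSP18.0, HSP17.7 and HSP17.4 were lower by −0.78 ± 0.13, −0.62 ± 0.09, −0.52 ± 0.09 and −0.50 ± 0.11 (adjusted p 0.0267, 0.0192, 0.0280 and 0.0477). The hsp17.9 gene read 131 and 185 in mhz4 and 135 and 178 in mhz5, against 283 and 261 in mhz1. Of 2 further tested probe sets of HSP18.0, 1 had the opposite sign. In sugar transport and sucrose breakdown 3 of 18 were lower and none higher: the sucrose synthase SUS4 by −1.03 ± 0.21, the sugar exporter SWEET1A by −0.61 ± 0.11 and the cell wall invertase CIN7 by −0.50 ± 0.09 (adjusted p 0.0424, 0.0303 and 0.0297). SWEET1A read 1304 and 765 in mhz4 and 1301 and 975 in mhz5, against 2149 and 1229 in mhz1. The vacuolar water channel TIP1-2, the 1 call among 18 aquaporins, read 38.2 and 57.9 in mhz4 and 51.7 and 46.9 in mhz5, against 89.8 and 174 in mhz1, a difference of −1.25 ± 0.20 (adjusted p 0.0245). In the germin-like list GER4 rose by 0.31 ± 0.05 (adjusted p 0.0285) while GER3, described above, fell, of 7 tested.

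Histone and cell cycle genes had 1 call each way among 37. The D-type cyclin CYCD6-1 was at 0.45 ± 0.09 and CYCD5-1 at −0.70 ± 0.08 (limma adjusted p 0.0386 and 0.0121). Of the 37 members 28 lay above 0, beside 5280 of 13117 over all genes tested, with a list median of 0.17. RPL39B was the 1 call among 25 ribosomal protein genes, at 0.20 ± 0.04 (limma adjusted p 0.0442), beside 1.97% higher over all genes. No gene passed among 15 chitinases and cystatins, 9 phytoalexin and diterpenoid genes, 3 class III peroxidases, 2 expansin-like, 2 lipid transfer and 2 other pathogenesis-related genes. In air, 6 of the 9 tested phytoalexin and diterpenoid genes had a signal at least 2-fold higher in mhz5 than in mhz4 and none at least 2-fold lower, beside 2.48% of all tested probe sets 2-fold apart either way; in ethylene none of the 9 was 2-fold apart. This was counted after the values were seen. Among the 6, CYP99A3 read 308 and 49 in mhz4 and 201 and 1351 in mhz5, against 751 and 587 in mhz1. The 12 heat shock, sugar, aquaporin, GER4, cyclin and ribosomal calls had adjusted p of 0.0635 to 0.225 without mhz1 air, and none passed; without mhz4 ethylene 1 passed, without mhz5 ethylene 2, without mhz1 ethylene 1, without mhz4 air 3 and without mhz5 air 10.

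**Figure D4:**
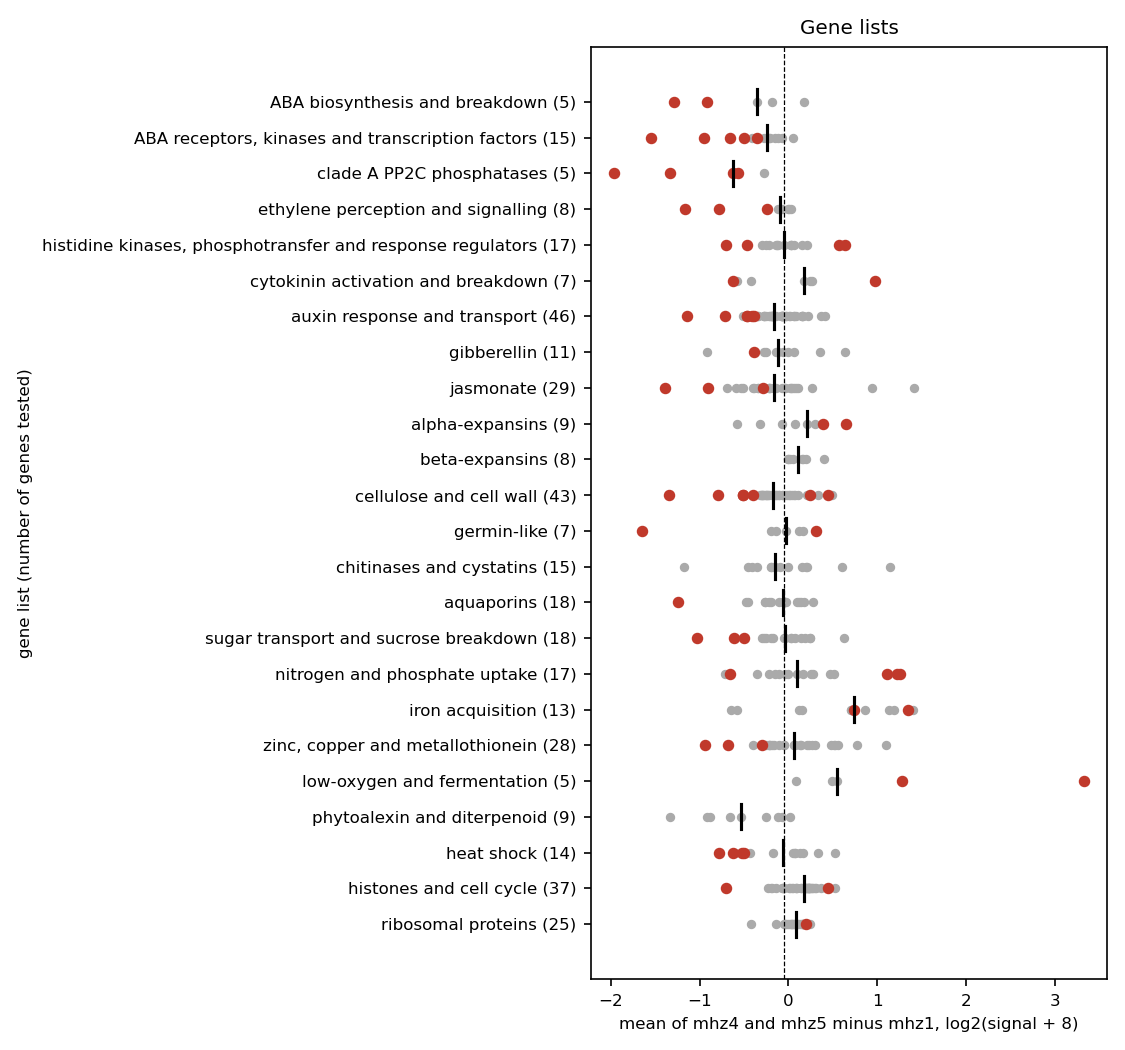
Difference of mhz4 and mhz5 from mhz1 on the log2(signal + 8) scale for each tested gene of the lists with at least 5 tested genes; red points have an adjusted p under 0.05, black bars are list medians and the dashed line is the median over all genes, −0.05. The iron list has its median at 0.73 with 2 red points, and the clade A PP2C list at −0.63 with 4.

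Whether the difference from mhz1 depended on gas was asked with the interaction of class and gas. No probe set passed in limma after adjustment (0%), and 1176 had an unadjusted p under 0.05 (5.82%). Within air alone 70 probe sets were higher (0.346%) and 141 lower (0.697%), and within ethylene alone 3 were higher (0.0148%) and 13 lower (0.0643%). Over the 1244 lower calls the median difference was −0.67 in air and −0.66 in ethylene. Over the 446 higher calls it was 0.55 in air and 0.46 in ethylene. These medians do not bear on gas dependence, because the fit that made the calls counts it as spread and so favours similar differences. The outcome depended on the filter on dim probe sets. With probe sets kept by all 14 arrays 5 passed, and with no filter 16, of which 14 had a positive interaction.

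Those 5 probe sets were each bright in mhz1 air alone. A probe set of PDHE1-A, a subunit of pyruvate dehydrogenase, read 9.33 and 9.19 in mhz4 and 9.50 and 7.69 in mhz5, against 8.52 and 151 in mhz1, and its difference was 3.35 higher in ethylene than in air (adjusted p 0.0424). The brightest probe set of PDHE1-A, which was tested, read 2626 and 2688 in mhz4 and 2762 and 2644 in mhz5, against 2514 and 2604 in mhz1, and did not pass (adjusted p 0.423). A probe set of LOC4349298 read 8.45 and 8.23 in mhz4 and 9.30 and 6.63 in mhz5, against 9.53 and 197 in mhz1. The brightest probe set of LOC4349298 read 53.1 and 54.5 in mhz4 and 53 and 54.2 in mhz5, against 62.9 and 58 in mhz1 (adjusted p 0.351). For both genes the brightest probe set thus did not show the high mhz1 air value. The other 3 probe sets are unnamed here. With no filter RAB21 passed too, with a difference of −1.02 in ethylene and −4.58 in air and an interaction of 3.56 (adjusted p 0.0363). Since the interaction of these genes rests on 1 array, mhz1 air, it has no check by a second array.

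Among named genes whose air and ethylene differences did not overlap, the largest interactions are given as a description, with adjusted p of 0.857 to 0.883. PM1, a PM19-like membrane protein, read 64.1 and 107 in mhz4 and 234 and 51.8 in mhz5, against 47.2 and 378 in mhz1, an interaction of 3.48. NSHB2, with the values above, had 2.53, since its difference was 4.59 in ethylene and 2.06 in air. JAZ9, a jasmonate repressor, read 78.1 and 33.4 in mhz4 and 141 and 45.6 in mhz5, against 58.3 and 129 in mhz1 (2.31), and LEA19 had 1.72. In the other direction, a peroxidase gene (LOC4344277) read 64.8 and 309.5 in mhz4 and 171 and 139 in mhz5, against 59.5 and 29.7 in mhz1 (−1.76). The ammonium transporter AMT2-2 read 49.5 and 68.2 in mhz4 and 76.3 and 74.4 in mhz5, against 119 and 37.7 in mhz1 (−1.66), so it was below mhz1 in ethylene and above it in air. LOX3, a lipoxygenase, read 579 and 734 in mhz4 and 517 and 500.3 in mhz5, against 497 and 174 in mhz1 (−1.62). OsCASPL1C1, of the Casparian strip protein family, read 67.5 and 142 in mhz4 and 70.9 and 51.9 in mhz5, against 95.6 and 38 in mhz1 (−1.47).

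**Figure D5:**
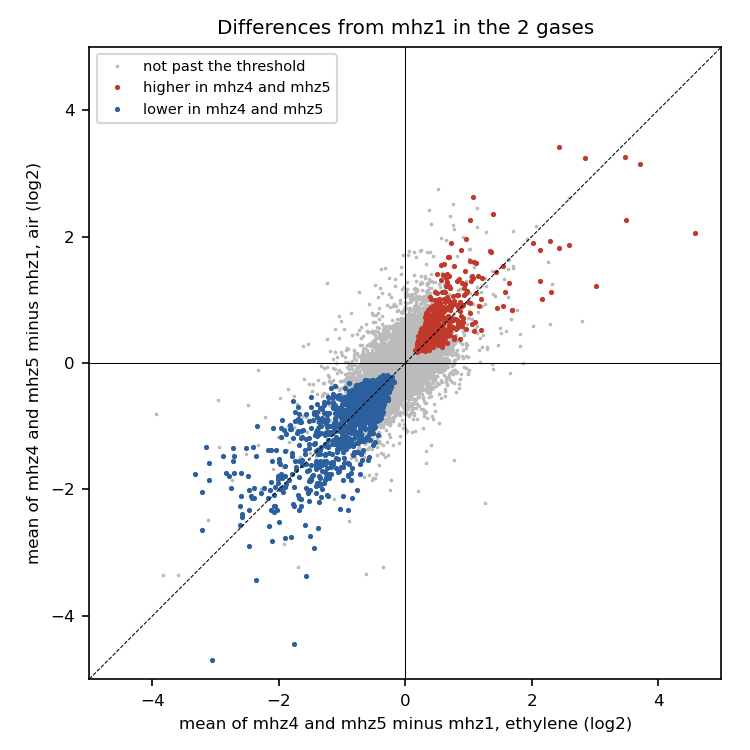
Difference of the mean of mhz4 and mhz5 from mhz1 in air (vertical) against the same in ethylene (horizontal), log2 scale, 1 point per tested probe set, with the line of equality dashed. Red and blue points are the 446 higher and 1244 lower calls, which lie above and below 0 in both gases.

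The 2 ABA-pathway mutants can be set side by side, although their differences share the mhz1 arrays and are not independent. For CIPK6 the mean over gases was −2.09 in mhz4 and −1.77 in mhz5, for OsPP2C09 −1.38 in mhz4 and −1.29 in mhz5, and for NSHB1 1.31 in mhz4 and 1.24 in mhz5. The iron gene NAAT1 was further from mhz1 in mhz5, at 1.70, than in mhz4, at 0.99. The median size of the difference between mhz5 and mhz4 over all tested probe sets was 0.09, and 193 were at least 2-fold apart. Only 5 of the 1690 calls were among these, as the fit counts a difference between mhz4 and mhz5 as spread. They were the genes LOC4333209 and LOC4347252 and 3 unnamed probe sets, listed after their values were seen. LOC4347252 read 44.8 and 10.4 in mhz4 and 103 and 37.1 in mhz5, against 633 and 739 in mhz1.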

How the data were processed

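Affymetrix rice arrays gave 1 deposited intensity per probe set on a linear scale. The submitters' processing notes name MAS5 without a version, scaling target or genome build. From the 57381 probe sets, 187 controls were left out. Those reaching 50 on 2 or more of the 6 arrays (20217) were tested on log2(signal + 8) with limma 3.58.1 in R 4.3.3 (lmFit, eBayes with trend, class and gas as terms, Benjamini-Hochberg adjustment, threshold 0.05). Residual degrees of freedom were 3, prior 2.94, and the median residual SD 0.11. The interaction fit had 2 residual degrees of freedom. The filter could keep a probe set through the arrays of 1 class alone, where it was high. Among the genes named as called, NSHB2, ILI2, CCR1 and BGLU3 were kept through mhz4 and mhz5 alone. PP2C68, pla2-II, BGLU16, SAPK10, CML15 and BGLU10 were kept through mhz1 alone. The procedure was tested on simulated data.

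Genes were named through the platform annotation and the RefSeq gene table of rice assembly ASM3414082v1. Of the probe sets used, 22436 had 1 gene, 95 several and 34663 none, and all 17905 genes were found in the table, 2451 with an informative name. The brightest probe set stood for a gene. Named are MHZ4, the 12 largest calls in each direction, up to 4 calls per list, all clade A PP2C and LEA genes, the 4 largest interactions in each direction and 4 unnamed probe sets. The number of arrays limits the precision. Members and lists were chosen with earlier results of these data known. Alternatives covered offset, filter, scaling, model terms, arrays in the fit, variance trend and left-out arrays.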

Additional observations from a re-analysis of the deposited data

How the results depend on the processing

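Against 1690 calls, the fit to 10 arrays without wild type gave 2968 and that to all 14 arrays 2886; without both mhz4 arrays 462 passed, and leaving out 1 array in turn gave 4 to 1507. For genes of the lists, against 66, the counts were 106, 100, 18 and 0 to 56 under the same settings. The 4 left without mhz1 air come from a fit in which mhz1 is 1 array, assumed to vary like the others. The 211 probe sets at least 2-fold apart in all 4 pairs became 139 with an offset of 32 and 628 at 1.5-fold. The interaction gave 0 calls as reported, 16 with no filter and 5 with the filter over all 14 arrays, an alternative chosen after seeing the data. Offset, scaling, genotype terms, variance trend and the other filters kept the count of calls within 1.5 times, but not the same calls. Of the 1690, 1340 also passed after quantile normalization, 1446 with the common trimmed mean and 1475 with genotype terms. Of the 82 named genes called, 15, 9 and 9 missed the threshold under these settings. Without the variance trend 12 missed it, and with no filter 10. All 82 named genes called kept their sign under every setting in which they were tested. Apart from scaling to a common trimmed mean and quantile normalization, this was fixed in advance, as all 4 same-gas differences of each call had 1 sign. It therefore adds nothing under the other offsets, filters, model terms and left-out arrays. No paired analysis was possible because every group has 1 array and the only replicate number is 1. Signals near the floor and the absence of replicate arrays limit these results: dim genes such as RAB16B were tested only under looser filters, and no call separates genotype from array.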

Other observations

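Families that recur among the largest differences were counted after their values had been seen, so no test was made of them. Calmodulin-like genes had 7 lower and no higher calls among 19 tested (median −0.23), CBL-interacting kinases 6 lower and no higher among 19 (median −0.24), and beta-glucosidases 7 lower and 2 higher among 19 (median −0.31), beside 6.7% lower and 1.97% higher over all genes. CML15 read 15.6 and 23 in mhz4 and 21 and 17.4 in mhz5, against 51.3 and 79.7 in mhz1, a difference of −1.41 ± 0.18 (limma adjusted p 0.0145). CIPK23, a kinase known to activate potassium and nitrate transporters, read 1463 and 1108 in mhz4 and 1717 and 1269 in mhz5, against 2207 and 1854 in mhz1 (−0.56 ± 0.10, adjusted p 0.0280), but its second tested probe set had the opposite sign. CIPK32 and CIPK16 differed by −0.57 ± 0.07 and −0.64 ± 0.12 (adjusted p 0.0140 and 0.0368). BGLU30 read 274 and 981 in mhz4 and 386 and 1096 in mhz5, against 1285 and 1939.7 in mhz1 (−1.43 ± 0.26, adjusted p 0.0307), and BGLU10 42.1 and 40.2 in mhz4 and 31 and 43.8 in mhz5, against 123 and 106 in mhz1 (−1.38 ± 0.15, adjusted p 0.0111). Like BGLU16, CML15 and BGLU10 reached 50 on the mhz1 arrays only, so the filter kept them through mhz1 alone. Of 12 calls in these families (CML14, CML15, CML16, CML31, CIPK6, CIPK16, CIPK23, CIPK32, BGLU3, BGLU10, BGLU16 and BGLU30), none passed without mhz1 air (adjusted p 0.0626 to 0.268); without mhz4 ethylene 5 passed, without mhz5 ethylene 9, without mhz1 ethylene 2, without mhz4 air 9 and without mhz5 air 11.

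PSY3, a phytoene synthase at the head of the carotenoid pathway, was looked at after its values were seen. It was not tested, since 1 array reached 50: it read 19.8 and 13.1 in mhz4 and 31.0 and 16.1 in mhz5, against 41.6 and 180.5 in mhz1 (ethylene, then air). Probe sets with no gene in the annotation held some of the largest differences. Os.46431.1.S1_at read 234 and 251 in mhz4 and 130 and 146 in mhz5, against 5.92 and 14.4 in mhz1, a difference of 3.43 ± 0.31 (SE, adjusted p 0.00885). Os.3300.1.S1_s_at read 78.1 and 78.8 in mhz4 and 176 and 173 in mhz5, against 3.34 and 5.01 in mhz1, a difference of 3.37 ± 0.40 (adjusted p 0.0134). Both reached 50 on mhz4 and mhz5 arrays only, so the filter kept them through those arrays alone. Os.1131.2.S1_x_at and OsAffx.13377.1.S1_at were lower by −2.51 ± 0.15 and −2.48 ± 0.10 (adjusted p 0.00508 and 0.00264). Without mhz1 air the 4 had adjusted p of 0.0838, 0.122, 0.0597 and 0.0504.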
